A study of Homo sapiens with 12 samples.

Results

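The genes described here are 9 members of the EPH receptor and ephrin family, taken by gene symbol from the 44659 genes of the count table, in a list drawn up with earlier results of these data known. They are the receptors EPHA2, EPHA3, EPHA4, EPHB2 and EPHB4 and the ligands EFNA1, EFNA5, EFNB1 and EFNB2. RNA was measured in 12 libraries of A375, a line derived from a human skin melanoma that carries an activated BRAF kinase, in 4 groups of 3 libraries. The control (CC) was grown with DMSO, the solvent, for 72 h. The treated group (TC) was exposed for 72 h to vemurafenib at 500 nM, which inhibits mutant BRAF, and cobimetinib at 500 nM, which inhibits MEK (MAPKi), and was harvested at the end of the exposure. Persister cells (PC) had the same MAPKi exposure followed by 2 days in drug-free medium, and recovered cells (RC) had it followed by 9 days in drug-free medium with passaging as needed. All groups are of 1 cell line, the RNA came from the cytoplasmic fraction, and CC was harvested at 72 h only, so that time in culture and drug history cannot be told apart in PC and RC. The replicates carry numbers in the labels, but nothing says how they were separated, so that the p-values measure the spread between these libraries, which may be technical.

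EPH receptors form the largest family of receptor tyrosine kinases, and their ligands, the ephrins, stay attached to the membrane of the neighbouring cell. Ephrin-A ligands are held by a lipid anchor and bind mostly EPHA receptors, whereas ephrin-B ligands span the membrane and bind mostly EPHB receptors, with EPHA4 able to bind both classes. Contact between cells starts a forward signal in the receptor-bearing cell and can start a reverse signal in the ephrin-bearing cell, and both act on the cytoskeleton and on adhesion, which is how the family guides axons, neural crest cells (the embryonic source of melanocytes) and the sorting of cells into compartments.

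Promoter sequences are shown for 4 members: EFNB2 and EFNA5, which had the largest rise and the largest fall under MAPKi, and the ligand and receptor pair EFNA1 and EPHA2, which were both higher under MAPKi. Each is the 250 bases before the gene's start, written 5′ to 3′ on the gene's strand, from RefSeq (GRCh38.p14). The intervals are chr13:106535663-106535912 for EFNB2, chr5:107670938-107671187 for EFNA5, chr1:155127626-155127875 for EFNA1 and chr1:16156070-16156319 for EPHA2, of which EFNA1 is on the plus strand and the other three are on the minus strand. Capitals mark the 1 motif match found.
EFNB2 promoter: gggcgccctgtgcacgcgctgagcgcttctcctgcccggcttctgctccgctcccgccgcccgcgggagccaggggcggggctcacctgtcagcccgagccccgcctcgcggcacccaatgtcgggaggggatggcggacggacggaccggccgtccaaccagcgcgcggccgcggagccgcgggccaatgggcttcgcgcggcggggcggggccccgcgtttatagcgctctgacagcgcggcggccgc
EFNA5 promoter: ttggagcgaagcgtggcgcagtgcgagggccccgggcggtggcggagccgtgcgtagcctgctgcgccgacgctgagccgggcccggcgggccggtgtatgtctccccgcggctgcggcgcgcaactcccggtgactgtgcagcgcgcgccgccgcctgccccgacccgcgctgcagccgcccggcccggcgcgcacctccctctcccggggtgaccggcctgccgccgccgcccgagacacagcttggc
EFNA1 promoter: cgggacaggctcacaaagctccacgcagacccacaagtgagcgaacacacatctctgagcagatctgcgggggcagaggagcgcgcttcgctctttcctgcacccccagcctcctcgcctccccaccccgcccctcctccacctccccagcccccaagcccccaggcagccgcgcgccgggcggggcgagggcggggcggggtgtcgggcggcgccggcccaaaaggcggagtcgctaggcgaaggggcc
EPHA2 promoter: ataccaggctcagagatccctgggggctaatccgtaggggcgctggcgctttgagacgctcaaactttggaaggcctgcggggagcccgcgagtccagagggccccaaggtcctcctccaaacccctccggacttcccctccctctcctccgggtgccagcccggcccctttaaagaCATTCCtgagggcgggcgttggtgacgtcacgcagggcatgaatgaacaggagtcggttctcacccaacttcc
These promoters held 40 (EFNB2), 41 (EFNA5), 24 (EFNA1) and 15 (EPHA2) CpG dinucleotides, beside a median of 11 over 35093 promoters of the same length and 19 over the 16858 of tested genes. Their GC content was 78.4%, 79.6%, 73.2% and 63.2% in the same order, beside medians of 58% and 64%, so that EPHA2 was slightly below the tested genes. A search on both strands for the letters of 5 motifs, in the promoters of all 9 members, found 1 match. This was GGAATG, the core bound by TEAD factors, on the reverse strand of the EPHA2 promoter at bases 73 to 68 before the start, and 11.9% of the 35093 promoters and 9.97% of those of tested genes hold it. The letters CCGGAA (ETS, in 14.5% of promoters and 21.1% of those of tested genes), TGACTCA (AP-1, 4.2% and 3.23%), GTAAACA (FOXO, 2.98% and 2.26%) and CACGTG (E-box, 6.34% and 8.11%) were in none of the 9. No motif searched contains another, and a match or its absence describes these letters in this window only.

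Total counts ran from 37773389 to 55567097 per library, and genes with a mean scaled count of at least 10 were tested (15916 genes, the 9 members included). As a check of the labels, ETV4, an ETS factor switched on by the MAPK pathway, was at 230 to 238 CPM (counts scaled to a common library size) in CC and 2.39 to 2.77 CPM in TC. CC replicate 3 stood apart from the other CC libraries in the feedback inhibitors, with DUSP6 at 77.6, 94.4 and 297 CPM and SPRY4 at 342, 270 and 720 CPM in CC replicates 1 to 3. None of the 7 melanocytic markers was at or under 3 counts in all libraries, and their summed level was 1661 to 1889 CPM in CC, 7076 to 10285 CPM in TC, 3484 to 5090 CPM in PC and 1526 to 1592 CPM in RC. In TC and PC most of that sum was DCT, a pigment enzyme, at 5261 to 7866 CPM in TC, whereas MLANA (0.339 to 1.94 CPM) and TYR (1.39 to 5.93 CPM) were low in every library. The markers did not all move one way, since S100B was lower in TC than in CC (log2 fold change -0.91) and MITF was lower in PC (-0.71). The summed keratinocyte markers were at 40.6 to 52.1 CPM in CC, 88.6 to 94.6 in TC, 95.2 to 104 in PC and 55.7 to 61.1 in RC, mostly KRT10, with 2 of the 5 at 0 in every library (KRT1 and DSG3). The summed fibroblast markers were at 28.2 to 37.7, 7.44 to 8.76, 7.56 to 8.60 and 21.2 to 23.5 CPM in the same order, mostly LUM, with 1 of the 5 at 0 (COL3A1). The summed endothelial markers were at 9.65 to 12.1, 2.15 to 2.57, 1.76 to 2.06 and 5.07 to 6.47 CPM, with CDH5 at 0. The summed leukocyte markers were at 1.48 to 2.01, 0.818 to 0.959, 0.366 to 0.934 and 1.38 to 1.55 CPM, with none of the 5 at 0 in every library. These levels moved with the groups, and their part in the values of the members was not tested. In bulk RNA, fewer cells of a kind and less RNA per cell cannot be told apart.

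Under MAPKi the family split, with 3 members higher, 3 lower and 3 not called in TC compared with CC (edgeR quasi-likelihood test, Benjamini-Hochberg adjusted p under 0.05). Of all genes tested 67.9% were called in that comparison, 33.2% higher and 34.7% lower, so that a call by itself did not set the members apart. EPHB2, EPHB4 and EFNA5 were lower, and EPHA2, EFNA1 and EFNB2 were higher, though EFNB2 passed the filter mostly through TC and PC. After 2 days without drug the same 3 genes were higher in PC than in CC, and EPHA3 joined the 3 that were lower, which gave 7 calls of 9 beside 69.1% of all genes, 33.2% higher and 35.9% lower. In RC, after 9 days without drug, 1 member was higher than in CC (EPHB2), 2 were lower (EPHA2 and EFNA5) and 6 were not called, beside 37.3% of all genes called, 18.2% higher and 19.1% lower. TC, PC and RC were compared with the same CC libraries. Over the first 2 days after drug removal the test called no rise in any member, and it called a fall from TC to PC in 4 (EPHA3, EPHA4, EPHB2 and EFNA5), beside 24.7% of all genes called, 12.2% higher and 12.5% lower. From PC to RC, 8 of 9 members changed, 5 higher and 3 lower, beside 69.8% of all genes, 35.7% higher and 34.2% lower.

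Fewer members changed by more than 1.5-fold (edgeR glmTreat, adjusted p of at most 0.05). These were EFNA1 and EFNB2 (higher) and EFNA5 (lower) in TC, and EFNB2 (higher), EPHA3, EPHB2 and EFNA5 (lower) in PC, beside 35.4% of all genes in TC (16.1% higher, 19.3% lower) and 37.1% in PC (17.2% higher, 19.9% lower). None was beyond 1.5-fold in RC compared with CC, where 3.87% of all genes were (1.35% higher, 2.52% lower), nor in PC compared with TC, where 3.48% were (2.33% higher, 1.15% lower). By the test without a fold limit those comparisons had 3 and 4 members called. From PC to RC, EPHB2 and EFNA5 were higher and EPHA2, EFNA1 and EFNB2 were lower beyond 1.5-fold, beside 38.7% of all genes (20.2% higher, 18.5% lower). The 3 libraries of one group lay wholly above or below those of the other for 6 members in TC, 8 in PC and 4 in RC against CC, beside 68.0%, 70.1% and 47.2% of all genes. The same held for 4 members in PC against TC, beside 47.1% of all genes, and for 8 in RC against PC, beside 78.6%.

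**Figure D1:**
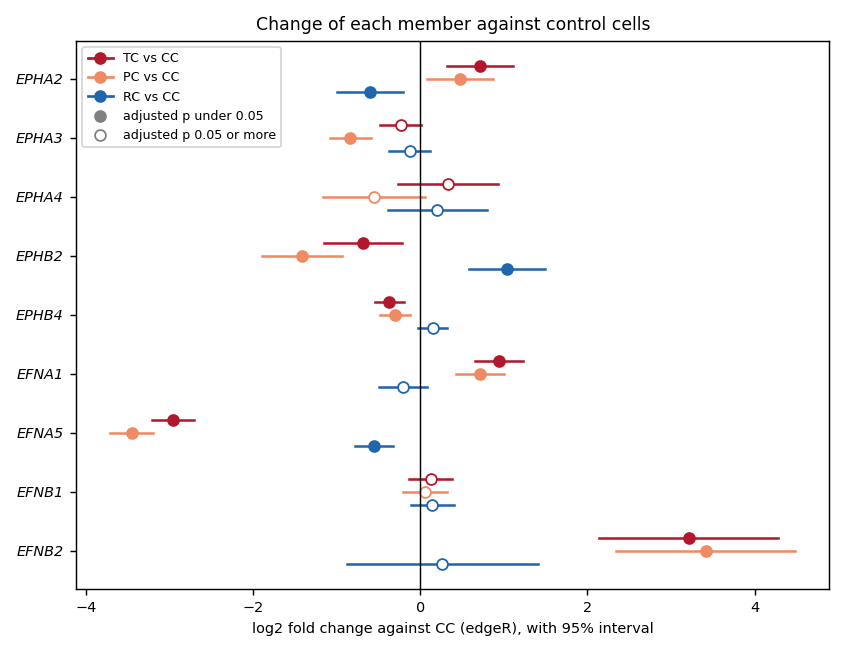
The log2 fold change of each of the 9 members against CC (x axis, from edgeR) is plotted for TC, PC and RC, with bars for the 95% confidence interval and filled points for an adjusted p under 0.05. EFNB2 lies at 3.21 and 3.41 and EFNA5 at -2.96 and -3.45 in TC and PC, and in RC all members lie between -0.60 and 1.04.

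EPHA2 (chr1:16124337-16156069, minus strand, GRCh38) is an EPHA receptor of epithelial and many tumour cells whose main ligand is ephrin-A1. It was at 28.2, 22.2 and 33.8 CPM in CC replicates 1 to 3 and at 34.6, 47.3 and 56.1 in TC. PC had 35.9, 39.5 and 41.8 CPM, whereas RC had 21.1, 18.2 and 16.1. All TC and PC libraries were above all CC libraries and all RC libraries were below them. The log2 fold change against CC was 0.71 ± 0.18 (SE) in TC (edgeR, adjusted p = 0.0038) and 0.48 ± 0.18 in PC (adjusted p = 0.032). In RC it was -0.60 ± 0.18 (adjusted p = 0.021), a level 1.52-fold below CC. The fall from PC to RC was the larger step, at -1.08 ± 0.18 (edgeR, adjusted p = 0.00019). The PC and RC calls against CC each rested on single libraries. Leaving out CC replicate 1 or 2 or PC replicate 2 or 3 gave an adjusted p of 0.068 to 0.125 for PC, and leaving out CC replicate 1 or 3 or RC replicate 2 or 3 gave 0.0536 to 0.0807 for RC.

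EPHA3 (chr3:89107621-89482134, plus strand), a receptor for ephrin-A5 among others, was the most abundant member per base of transcript in every group. It was at 617, 613 and 612 CPM in CC and at 433, 508 and 626 in TC. The PC level was 320, 328 and 384, and RC had 554, 545 and 587 CPM. The highest of the 3 CC libraries was 1.01 times the lowest, whereas TC spread over both sides of the CC level and PC lay below every other library. EPHA3 was not called in TC, at a log2 fold change of -0.23 (95% confidence interval -0.48 to 0.01, edgeR, adjusted p = 0.085). It was called in 3 of 18 alternatives, without TC replicate 3 (-0.38, adjusted p = 0.0034), with the replicate number as a block (-0.25, adjusted p = 0.0321) and with library totals (-0.25, adjusted p = 0.0471). In PC the log2 fold change was -0.84 ± 0.11 (SE, adjusted p = 3.1e-05), and PC was also below TC, at -0.60 ± 0.11 (adjusted p = 0.0023). EPHA3 was higher again in RC than in PC, by 0.71 ± 0.11 (edgeR, adjusted p = 0.00012). Its RC libraries were all below the CC libraries, but the difference of -0.13 (interval -0.37 to 0.12) did not pass the test (adjusted p = 0.40).

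EPHA4 (chr2:221418027-221574202, minus strand) binds ephrins of both classes and had few reads here, 721 counts over the 12 libraries. It was at 1.38, 1.38 and 1.12 CPM in CC and at 1.37, 1.64 and 1.87 in TC. The PC libraries had 0.497, 1.04 and 1.09 CPM and the RC libraries 1.75, 1.42 and 1.30. PC replicate 1 had less than any other library, and the PC libraries were all below those of the other groups. The tests against CC did not pass, with log2 fold changes of 0.33 in TC (interval -0.27 to 0.93), -0.56 in PC (interval -1.17 to 0.05) and 0.20 in RC (interval -0.39 to 0.80). PC was lower than TC, with a log2 fold change of -0.89 ± 0.28 (SE, edgeR, adjusted p = 0.036), and RC was higher than PC by 0.76 ± 0.28 (adjusted p = 0.028). Without PC replicate 1 these were -0.61 (adjusted p = 0.088) and 0.48 (adjusted p = 0.085), and other single libraries also ended both calls. In the annotation 353 exonic bases of EPHA4 overlap a gene on the opposite strand, and reads from such a pair cannot be separated here, since the strand setting of the counting was not given in the sources used here.

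EPHB2 (chr1:22710839-22921500, plus strand), an EPHB receptor known from axon guidance and from the positioning of cells in intestinal crypts, was the member that ended above its starting level. It was at 2.74, 3.34 and 4.40 CPM in CC and at 1.89, 2.25 and 2.39 in TC. Levels of 1.02, 1.54 and 1.36 CPM followed in PC, with 8.37, 6.96 and 6.20 CPM in RC. No libraries overlapped between any 2 of the 4 groups, with PC lowest, then TC, CC and RC. The log2 fold change against CC was -0.68 ± 0.21 (SE) in TC (edgeR, adjusted p = 0.013), -1.41 ± 0.22 in PC (adjusted p = 9.7e-05) and 1.04 ± 0.21 in RC (adjusted p = 0.0025). RC was thus 2.05-fold above CC, while from PC to RC the rise was 5.46-fold (log2 fold change 2.45 ± 0.22, adjusted p = 9.0e-07). The TC call ended without CC replicate 3 (-0.48, adjusted p = 0.0599) or without TC replicate 1 (-0.59, adjusted p = 0.0515). EPHB2 also fell from TC to PC, by 0.73 on the log2 scale (SE 0.22, edgeR, adjusted p = 0.030), a call that ended without any one of 4 libraries (TC replicates 2 and 3, PC replicates 1 and 3).

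EPHB4 (chr7:100802565-100827523, minus strand) is the main receptor of ephrin-B2 and is best known from veins. It was at 58.6, 55.1 and 60.7 CPM in CC and at 41.7, 44.6 and 48.3 in TC. PC was at 50.1, 46.5 and 44.7 CPM and RC at 70.6, 62.9 and 59.4. TC and PC overlapped each other and were below all CC and RC libraries. The changes were small and well resolved, with log2 fold changes of -0.37 ± 0.08 (SE) in TC (edgeR, adjusted p = 0.0013) and -0.30 ± 0.08 in PC (adjusted p = 0.0049), neither beyond 1.5-fold. RC was higher than PC by 0.45 ± 0.08 (edgeR, adjusted p = 0.00030). Against CC it was 0.15 higher, with an interval of -0.03 to 0.32 (adjusted p = 0.17). EPHB4 shares 69 exonic bases with SLC12A9 on the opposite strand.

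**Figure D2:**
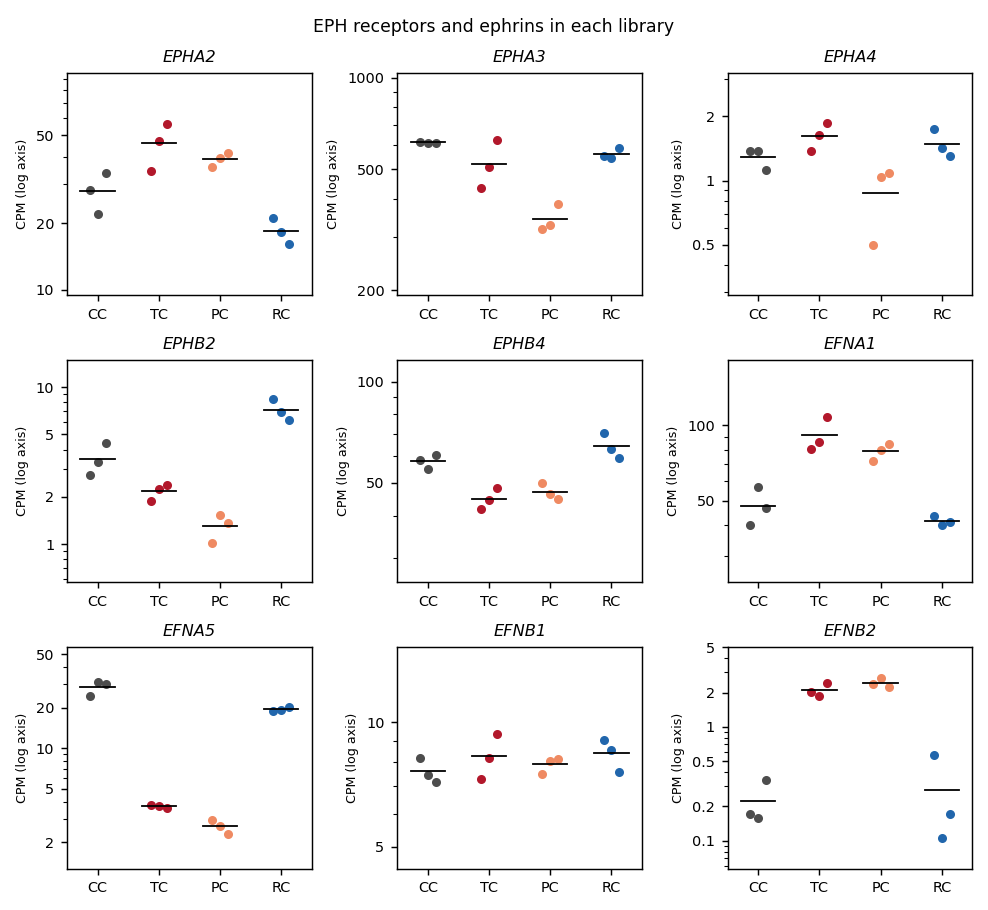
CPM on a log axis is shown for each of the 9 members in each of the 12 libraries, with points for libraries (coloured by group) and bars for group means. The TC and PC libraries of EFNA5 (2.31 to 3.76 CPM) and of EFNB2 (1.87 to 2.67 CPM) are far from those of CC and RC, EPHA3 is lowest in PC, and EPHB2 is highest in RC.

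Among the ligands, EFNA1 (chr1:155127876-155134899, plus strand), the lipid-anchored ligand of EPHA2 and first known as a gene induced by inflammatory signals in endothelium, was at 39.9, 56.6 and 46.9 CPM in CC and at 80.5, 85.5 and 108 CPM in TC. PC had 72.0, 79.5 and 84.6 CPM, and RC had 43.6, 40.1 and 41.0 CPM. Every TC and PC library was above every CC and RC library, and RC lay within the range of CC. The log2 fold change against CC was 0.94 ± 0.13 (SE) in TC (edgeR, adjusted p = 4.5e-05) and 0.72 ± 0.13 in PC (adjusted p = 0.00036). The level fell from PC to RC by 0.92 on the log2 scale (SE 0.13, edgeR, adjusted p = 4.8e-05), and RC against CC was -0.20 (interval -0.49 to 0.08, adjusted p = 0.25). EFNA1 and its receptor EPHA2 were thus both higher in TC and PC, whereas in RC only EPHA2 passed the test as lower, and the difference between the pair in RC was not tested.

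EFNA5 (chr5:107376894-107670937, minus strand), a lipid-anchored ligand known as a repellent of growing axons, had the largest fall of the 9. It was at 24.7, 31.2 and 30.1 CPM in CC and at 3.76, 3.71 and 3.62 CPM in TC. The level was 2.90, 2.65 and 2.31 CPM in PC and 18.9, 19.2 and 20.3 CPM in RC. The 4 groups did not overlap, in the order PC, TC, RC and CC. EFNA5 was 7.76-fold lower in TC than in CC (log2 fold change -2.96 ± 0.11, SE, edgeR, adjusted p = 7.4e-10) and 10.9-fold lower in PC (-3.45 ± 0.12, adjusted p = 2.9e-10). It went on falling after drug removal, by 0.49 on the log2 scale from TC to PC (SE 0.12, edgeR, adjusted p = 0.0082), and then rose 7.42-fold to RC (adjusted p = 9.3e-10). The return was partial, with RC lower than CC by 0.56 on the log2 scale (SE 0.10, edgeR, adjusted p = 0.0015), a level 1.47-fold below CC. Each of these calls of EFNA5 held in all 18 alternative analyses of its comparison.

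EFNB1 (chrX:68829021-68842160, plus strand), a ligand that spans the membrane and whose loss disturbs the forming of skull and face, was the member with no call in any of the 5 comparisons. It was at 8.17, 7.45 and 7.17 CPM in CC and at 7.31, 8.18 and 9.36 in TC. For PC the values were 7.51, 8.06 and 8.14 CPM, and for RC 9.04, 8.58 and 7.58. All 4 groups overlapped. The log2 fold changes against CC were 0.13 in TC (interval -0.13 to 0.38), 0.06 in PC (interval -0.20 to 0.32) and 0.14 in RC (interval -0.11 to 0.40), so that the intervals exclude a change of 1.5-fold either way.

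EFNB2 (chr13:106489745-106535662, minus strand), the other ligand that spans the membrane, marks arteries and binds EPHB4. It was close to the limit of detection in CC, with 7, 7 and 16 counts, and in RC, with 23, 6 and 9 counts, so that it passed the filter mostly through TC and PC. In CPM it was at 0.173, 0.158 and 0.339 in CC and at 2.02, 1.87 and 2.42 in TC. It was at 2.35, 2.67 and 2.24 CPM in PC and at 0.566, 0.107 and 0.170 CPM in RC. All TC and PC libraries were above all CC and RC libraries. EFNB2 was 9.26-fold higher in TC than in CC (log2 fold change 3.21 ± 0.49, SE, edgeR, adjusted p = 8.9e-05) and 10.7-fold higher in PC (3.41 ± 0.49, adjusted p = 5.2e-05). It then fell by 3.15 on the log2 scale from PC to RC (SE 0.48, edgeR, adjusted p = 8.2e-05). Few counts in CC and RC stand behind these changes, so that their sizes and p-values are to be read with that limit. RC against CC was 0.26 with an interval of -0.88 to 1.4, the widest interval of the 9 members in that comparison. The annotation places a gene on the opposite strand over 1822 exonic bases of EFNB2.

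The balance of the family was then set out on a per-length scale, as CPM per kilobase of the MANE Select transcript, which allows levels to be compared between genes. In CC the order of the members was EPHA3 (108 CPM per kilobase), EFNA1 (30.8), EPHB4 (13.3), EPHA2 (7.11), EFNA5 (5.34), EFNB1 (2.30), EPHB2 (0.317), EPHA4 (0.203) and EFNB2 (0.0447). EPHA2 and EFNA5 overlapped in CC and the other neighbours did not. In TC the mean of EPHA2 (11.7) passed that of EPHB4 (10.3), though their libraries overlapped, and EFNA5 (0.688) dropped below EFNB1 (2.51). EFNB2 (0.421) rose in TC above EPHA4 (0.255) and EPHB2 (0.197), with no overlap of its libraries with theirs. In PC the libraries of EPHB4 (10.8) and EPHA2 (9.90) overlapped, as did those of EFNA5 (0.488) and EFNB2 (0.485), which had been far apart in CC. Those of EPHA4 and EPHB2 overlapped in both TC and PC. The order of CC returned in RC, with EPHB2 (0.650) further above EPHA4 (0.235).

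Summed over the 14 receptor genes of the family, the level was 130 ± 2.2 CPM per kilobase (SD, n = 3) in CC, 118 ± 21.5 in TC, 87.6 ± 6.62 in PC and 120 ± 3.17 in RC. EPHA3 made up 82.8% ± 1.38 of that sum in CC, 77.4% ± 0.606 in TC, 68.7% ± 1.77 in PC and 82.0% ± 1.87 in RC. EPHA2 was at 5.47% ± 1.05 of the receptor sum in CC, at 11.3% ± 0.431 in PC and at 3.91% ± 0.541 in RC. These shares are descriptions and were not tested. Summed over the 8 ephrin genes, the level was 55.2 ± 6.56 CPM per kilobase in CC, 90.4 ± 12 in TC, 81.5 ± 3.68 in PC and 47.7 ± 2.58 in RC. The ephrin sum was mostly EFNA1, with 55.6% ± 3.22 in CC and 65% ± 2.29 in TC, while EFNA5 went from 9.68% ± 0.594 in CC to 0.770% ± 0.112 in TC and 0.602% ± 0.0942 in PC and was at 7.62% ± 0.582 in RC. The receptor sum was lowest in PC in every library, whereas the ephrin sums of TC (80.1 to 104) and PC (77.3 to 84.2) overlapped and were above those of CC and RC.

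**Figure D3:**
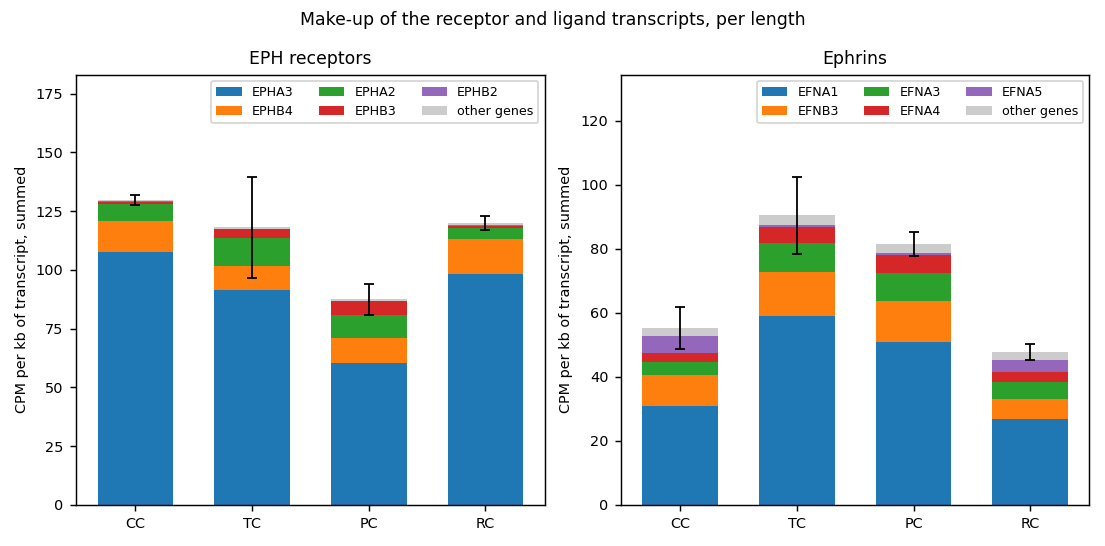
Summed levels of the 14 receptor genes and of the 8 ephrin genes are shown in CPM per kilobase of transcript as stacked bars of the group means, 3 libraries each, by gene, with error bars for the SD of the sum. EPHA3 fills most of the receptor bar in every group (68.7% to 82.8%), and EFNA1 fills most of the ephrin bar (55.6% to 65%).

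Ratios taken within each library show how single pairs shifted. On the per-length scale the ratio of EFNA1 to EFNA5 had a median of 5.59 in CC (5.38 to 6.29), 79.9 in TC (74.2 to 104), 104 in PC (85.8 to 127) and 7.24 in RC (6.99 to 7.99). The ratio of EPHA3 to EPHA2 had a median of 15.1 in CC (12.5 to 19.1), 7.71 in TC (7.42 to 8.66), 6.15 in PC (5.73 to 6.35) and 20.7 in RC (18.1 to 25.1). Between the receptor EPHB4 and its ligand EFNB2 the ratio had a median of 389 in CC (206 to 399), 23.7 in TC (22.9 to 27.4), 22.9 in PC (19.9 to 24.4) and 401 in RC (143 to 676). For the first pair and the last, the ranges of TC and PC did not meet those of CC and RC, and for EPHA3 and EPHA2 they did not either.

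Of the 13 other genes of the family, 7 passed the filter, and 6 of them were called in TC (4 higher, 2 lower), 7 in PC (5 higher, 2 lower) and 2 in RC (1 higher, 1 lower), beside 67.9%, 69.1% and 37.3% of all genes called. EPHB3, a receptor of ephrin-B ligands like EPHB2, stood out by size. It was at 3.13, 3.55 and 3.91 CPM in CC and at 11.8, 16.7 and 20.5 in TC. The values of PC were 23.6, 25 and 26.4 CPM and those of RC 3.77, 3.04 and 3.04, with TC and PC each above every CC and RC library. This was a rise of 4.63-fold in TC (edgeR, adjusted p = 4.0e-07) and of 7.06-fold in PC (adjusted p = 5.1e-08), opposite in direction to EPHB2 and EPHB4. Per length, EPHB4 was at a median of 15.1 times EPHB3 in CC and 1.81 times in PC. The receptor EPHB1 was not called in TC (log2 fold change -0.01) but was higher in PC than in CC (1.4 ± 0.27, SE, edgeR, adjusted p = 0.00051). EPHA5 and EPHA6, receptors best known from neurons, were lower in TC by 0.94 and 1.65 on the log2 scale and lower in PC by 1.66 and 1.09. The TC call of EPHA5 held in 14 of 18 alternatives (adjusted p up to 0.100) and the PC call of EPHA6 in 16 of 18 (up to 0.0779).

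The other 3 ephrins tested were higher in TC and PC, as EFNA1 and EFNB2 were. EFNA3 was higher by 1.09 in TC and 1.07 in PC on the log2 scale, EFNA4 by 0.88 and 1.02, and EFNB3 by 0.51 and 0.41, each past the threshold of the edgeR test. Over the family as a whole, 5 of the 7 ephrins tested were higher in TC and in PC and EFNA5 was the 1 lower, and the median of the 7 log2 fold changes was 0.88 in TC beside -0.02 over all genes tested. EFNB2, counted among the higher, passed the filter mostly through TC and PC. Of the 9 receptors tested, 2 were higher and 4 lower in TC, and 3 were higher and 5 lower in PC. Of all genes tested, 33.2% were higher and 34.7% lower in TC, and 33.2% were higher and 35.9% lower in PC. In RC the ephrin called besides EFNA5 was EFNB3, which was lower than in CC by 0.65 on the log2 scale (SE 0.08, edgeR, adjusted p = 9.6e-05). EPHB1 was higher in RC by 0.75, a call near the threshold (adjusted p = 0.045) that held in 6 of 18 alternatives. Reads of EFNA3 and EFNA4 could be shared with the annotated read-through transcript that joins the pair. In the annotation EPHA6 and EPHB1 also share exonic bases (2010 and 346) with another gene on the same strand. EPHA5 shares 535 exonic bases with EPHA5-AS1 on the opposite strand. The part of these overlaps in the values of the 5 genes was not tested. EPHA1 had 0 counts in all libraries, and EPHA7, EPHA8, EPHA10, EPHB6 and EFNA2 had between 4 and 54 counts over the 12 libraries and were not tested. The numbered copies of EPHA1 and EPHB6 that the table lists beside them were not added to them.

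**Figure D4:**
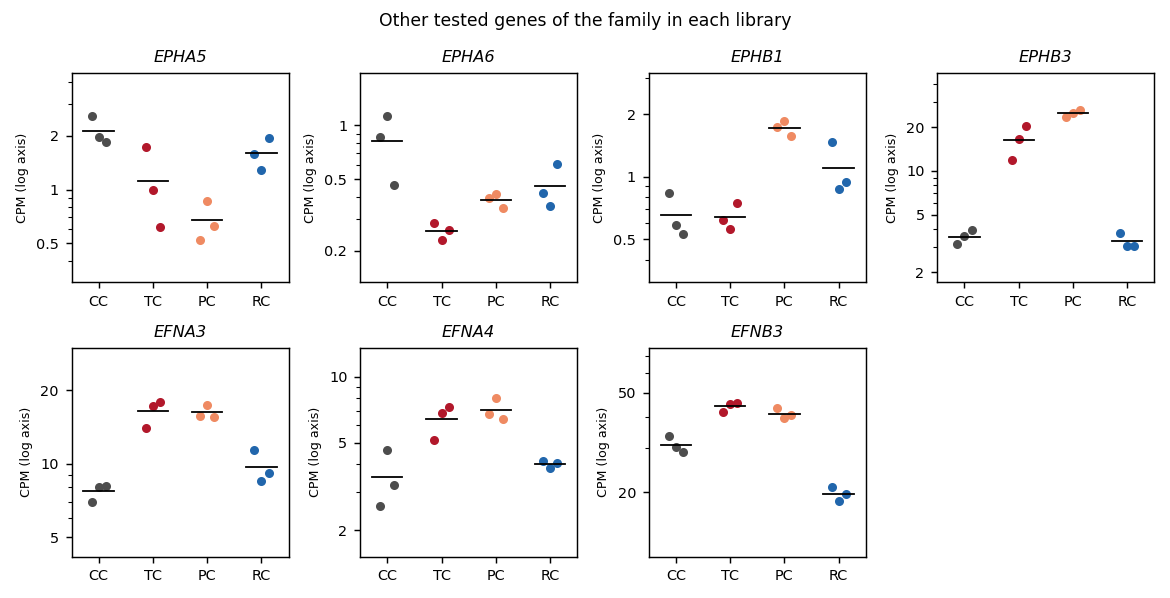
CPM on a log axis is shown in each library for the 7 tested genes of the family outside the 9 members, with bars for group means. EPHB3 is at 11.8 to 26.4 CPM in TC and PC and at 3.04 to 3.91 CPM in CC and RC, and EFNB3 is lowest in RC (18.5 to 21.0 CPM).

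Around the receptors and ephrins stand the proteins that carry or end their signals, and of 43 such partners 40 passed the filter. In TC 17 were higher and 14 lower than in CC, in PC 13 were higher and 16 lower, and in RC 6 were higher and 10 lower, shares to be read beside the 67.9%, 69.1% and 37.3% of all genes called. Their median log2 fold change was 0.02 in TC, -0.06 in PC and -0.12 in RC, beside -0.02, -0.04 and 0.00 over all genes tested. The proteases that cut EPH receptors or ephrins at the cell surface or in the membrane were higher in 4 of 4 cases in TC and in 3 of 4 in PC. The largest of these changes was in MMP14, a membrane-bound metalloprotease, at 188, 193 and 181 CPM in CC and 528, 670 and 776 CPM in TC (log2 fold change 1.81 ± 0.12, SE, edgeR, adjusted p = 5.6e-08). MMP14 is named here by its value among the 4 and was not chosen by the rule for named genes.

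Among the single partners with the largest called changes, CHN1 and CHN2, which switch off Rac and of which CHN1 acts below EPHA4, were lower by 2.31 (SE 0.11) and 2.37 (SE 0.19) on the log2 scale in TC (edgeR, adjusted p = 4.1e-09 and 3.0e-07). CHN2 was lower by 3.01 in PC and still lower in RC, by 0.95 (SE 0.18, edgeR, adjusted p = 0.0015). ARHGEF16, an exchange factor that binds EPHA2, was at 2.54, 1.87 and 2.98 CPM in CC and 0.235, 0.174 and 0.116 CPM in PC (log2 fold change -3.81 ± 0.49, edgeR, adjusted p = 2.1e-05). NGEF, an exchange factor that binds EPHA4, was at 0.197, 0.181 and 0.0846 CPM in CC and 0.259, 1.02 and 1.42 CPM in TC, with TC replicate 1 close to CC. It had 8, 8 and 4 counts in CC and 4, 5 and 3 in RC and passed the filter through TC and PC, so that no test of its rise is given. TIAM1, a Rac exchange factor that binds EPHA2 and ephrin-B1, was higher in all 3 groups, at a log2 fold change of 1.05 in TC, 1.57 in PC and 1.32 in RC (SE 0.12 each, edgeR, adjusted p = 2.3e-05 in RC). The adaptor ANKS1B was lower in RC by 1.01 (SE 0.26, edgeR, adjusted p = 0.010).

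The genes whose pattern over the 12 libraries was most like that of each member were then found. Likeness was measured as the root mean square difference between log2 CPM values, each gene centred on its own mean, over 11915 genes with a mean scaled count of at least 100, and is a description without a test, since the libraries share their groups. The genes nearest to EFNA5 were FAM210A (0.186) and TSPAN14 (0.193), beside a root mean square of 1.48 for EFNA5 itself around its mean. The nearest gene was less close, relative to the member's own root mean square, for EPHA4 (0.217 beside 0.454) and EFNB1 (0.0697 beside 0.115). EFNA1 was followed by ATP6AP1 (0.103) and MAGED1 (0.104), and EPHA2 by AEBP1 (0.146) and FRMD8 (0.160). EPHA3 lay closest to SIPA1L1 (0.0959), which is itself 1 of the 43 partners, and to SHROOM1 (0.126). For EPHB4 the nearest were RNPS1 (0.0684) and PDZD8 (0.0756), and for EPHB2 MAP3K9 (0.244) and LARS2 (0.295). EFNB1 was nearest to XPR1 and FUCA2 (0.0818), which like EFNB1 moved little. The nearest genes to EPHA4 were ITGA4 and EMP2 (0.257), and those to EFNB2 were CNIH2 (0.312) and CHRNB2 (0.450).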

How the data were processed

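RNA was extracted from the cytoplasmic fraction, depleted of ribosomal RNA and sequenced in pairs of reads, per the labels. The file the authors deposited holds unnormalized counts of reads by gene for 12 libraries. Per the submitters' processing notes, fastp 0.20.1, HISAT2 2.2.1, HTSeq 0.13.5 and GRCh38.p13 were used; strandedness and the handling of reads with several alignments are not given in the sources used here. Replicates were not pooled, and no pair of libraries within a group was a duplicate. Pairs between groups were not checked. A count of 3 is 0.0540 to 0.0794 CPM at these depths, which covers counting error only.

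Genes with a mean scaled count of at least 10 were tested (15916 of 44659). Counts were scaled with TMM factors (0.965 to 1.02), and the 12 libraries entered 1 quasi-likelihood fit with 4 group means in edgeR 4.0.16 (R 4.3.3). The fit had 8 residual degrees of freedom and a common biological coefficient of variation of 0.182. The tests were two-sided, with Benjamini-Hochberg adjustment over all genes tested and a threshold of 0.05, and glmTreat was used for changes beyond 1.5-fold. Standard errors were derived from the F statistic. CPM is on the normalized library size. The procedure was tested on data simulated from the fit to these libraries, for TC compared with CC only.

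Members and lists were chosen with earlier results of these data known. Named genes are the members, the tested genes of the family, the 3 called partners with the largest change in each group against CC, MAPK output genes, and the 2 genes most like each member. The counts of 1 group of partners by role are not reported here. Alternatives were other size factors, library totals, a looser filter, DESeq2 1.42.0, fits of 2 groups, a replicate block, and leaving out each library. Coordinates and transcript lengths came from GENCODE v44 (hg38) and promoters from RefSeq (GRCh38.p14), matched by symbol; neither is the annotation used for counting. Promoters were matched for 20 of the 22 family genes, and all 9 members. For a gene with several listed starts, the start nearest to the GENCODE gene start was taken.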

Additional observations from a re-analysis of the deposited data

How the results depend on the processing

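Each comparison was repeated under 18 alternatives. Of 810 values of the 9 members, 782 kept their direction and their side of the threshold (or were not called in either), 25 were no longer called, 3 became called and 0 reversed. Of 1169 values of the other named genes, 1097 did so, 60 were no longer called, 12 became called and 0 reversed. The number of members lower in RC than in CC was 2, and between 1 and 2 when a library was left out, the lost gene being EPHA2. The number lower in PC than in TC was 4, and between 2 and 4 when a library was left out. Beyond 1.5-fold, 1 member was higher in PC than in CC, and 2 without CC replicate 2, and 0 were higher in RC than in CC, and 1 without CC replicate 3. EPHA3 in TC was called with library totals (log2 fold change -0.25, adjusted p = 0.0471). The cause of these shifts was not tested. EPHA4 lost its call of PC against TC in 7 of 18 alternatives and of RC against PC in 4 of 18. EPHA4 and EFNB2, with 721 and 659 counts over the 12 libraries, had the widest intervals against CC.

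Deviations of samples with the same replicate number had correlations from -0.0373 to 0.155, and 8 of 12 libraries correlated best with their own number. Between PC and TC the correlations were 0.155, 0.0679 and 0.124 for replicates 1 to 3. These values do not settle whether the replicates are paired. With the replicate number as a block, 3 members were higher and 4 lower in TC than in CC, the added call being EPHA3 (-0.25, adjusted p = 0.0321). The counts of members called in the other 4 comparisons were the same with the block.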
